A study of Rattus norvegicus with 10 samples.

Results

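The genes of fatty acid synthesis and desaturation were examined in rat brain after 1 week of calorie restriction (CR), in which rats are given less food than they would eat. They are 10 genes chosen by name for their place in the pathway, *Fasn*, *Acaca*, *Acly*, *Scd2*, *Elovl5*, *Elovl6*, *Fads1*, *Fads2*, *Me1* and *Srebf1*, out of 14218 genes named on the array. All 10 were on the array, with 19 probe sets, the groups of short probes that each measure a transcript. Of these, 3 genes had 1 probe set, 6 had 2 and *Scd2* had 4. Rats on 5, 10, 20 or 30% CR received that much less food than rats fed freely had eaten, and control rats received the whole recorded intake. All groups were male Wistar rats, an outbred laboratory strain, which were on the regimen for 1 week starting at 6 weeks of age, ate the same purified powdered diet and went without food for the last 16 h. Each group was a pool of RNA from 5 rats on 1 array, which gave 4 CR arrays, 1 for each level, and 1 control array. A pool hides the spread between rats, and no CR level was measured again. The labels call the tissue brain, and the study's methods place it in the hypothalamus, the region that controls feeding.

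Fatty acids are built from acetyl-CoA, which ATP citrate lyase makes from citrate in the cytosol, and acetyl-CoA carboxylase and fatty acid synthase turn it into palmitate with reducing power from NADPH. Elongases then lengthen the chain and desaturases place double bonds in it. SREBP-1, the product of *Srebf1*, switches on most of these genes in the liver, where feeding and insulin raise them and fasting lowers them. In the brain the pathway supplies the lipids of membranes and myelin, and *Scd2* is the main stearoyl-CoA desaturase there, as known from mouse.

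The promoters of *Scd2*, *Me1* and *Elovl5* are shown because the probe sets of these genes differed most from each other in their change. They come from RefSeq on the GRCr8 build, run 5′ to 3′ on the strand of the gene and hold 250 bases before and 50 after the annotated start. Of the 10 genes 7 had an entry, 8 promoters in all since *Srebf1* had 2. Capitals mark CCAAT, the box bound by NF-Y, a factor that works with SREBP at lipid genes, in *Scd2* and *Elovl5* (in *Elovl5* it lies on the other strand and reads ATTGG), and in *Me1* they mark TGACNNNGC, the core of the antioxidant response element bound by NRF2.
Scd2, chr1:253118127-253118426, plus strand: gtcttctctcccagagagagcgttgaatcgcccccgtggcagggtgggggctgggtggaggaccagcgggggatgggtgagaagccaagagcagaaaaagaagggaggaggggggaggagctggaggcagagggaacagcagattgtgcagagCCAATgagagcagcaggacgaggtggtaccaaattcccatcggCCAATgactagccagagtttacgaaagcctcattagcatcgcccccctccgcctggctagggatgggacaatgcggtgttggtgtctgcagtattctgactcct
Me1, chr8:96540195-96540494, minus strand: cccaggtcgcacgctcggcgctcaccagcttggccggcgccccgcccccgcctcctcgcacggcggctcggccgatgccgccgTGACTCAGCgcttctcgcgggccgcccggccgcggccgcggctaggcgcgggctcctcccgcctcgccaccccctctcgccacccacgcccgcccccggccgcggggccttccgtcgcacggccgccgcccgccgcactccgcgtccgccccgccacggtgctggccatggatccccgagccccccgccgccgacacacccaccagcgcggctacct
Elovl5, chr8:87670914-87671213, plus strand: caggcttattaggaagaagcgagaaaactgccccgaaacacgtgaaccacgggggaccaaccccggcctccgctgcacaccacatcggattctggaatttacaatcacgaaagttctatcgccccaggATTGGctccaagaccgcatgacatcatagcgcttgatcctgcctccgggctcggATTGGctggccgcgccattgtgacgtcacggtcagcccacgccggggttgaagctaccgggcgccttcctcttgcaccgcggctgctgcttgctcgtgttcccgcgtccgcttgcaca
Each of the *Scd2* and *Elovl5* promoters held 2 CCAAT boxes and that of *Me1* held 1 TGACNNNGC match. On either strand, CCAAT was found in 6 of the 8 promoters, belonging to 5 genes, and in 37.5% of 33469 RefSeq promoters of that length. TGACNNNGC was in 1 of the 8 and 12.1% of all promoters, the E-box CACGTG in 1 of the 8 (*Elovl5*) and 6.42% of all, and the sterol element TCACNCCAC in 0 of the 8 and 1.12% of all. The match in *Me1* also contains TGACTCA, the letters of an AP-1 site. These matches describe the sequence alone, and no binding was measured.

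On the probe set with the highest signal, none of the 10 genes passed the test of CR against control. Beside these, 1 further probe set of *Scd2* and 1 of *Me1* were lower in CR, and 2 more of *Scd2* had high signals in CR and low ones in control. A probe set was tested where its mean log2 signal over the 5 arrays was in the upper part of the table, above a cutoff that equals a signal of 53.3, and 18 of the 19 were. The 2 probe sets of *Scd2* with high CR signals had a control signal under that cutoff, so they entered only through the group in which they are high, and their changes are given as a description with no test. The other 16 were above the cutoff in both groups. Of these 2 passed the test, both lower in CR, and 0 were higher, against 23.1% of the 13708 probe sets above it in both groups, 10.9% higher and 12.2% lower. Over all 15521 probe sets tested the share was 25.5%, 14.5% higher and 11.0% lower. The test was limma on log2 signal, the 4 CR arrays together against the control array, with Benjamini-Hochberg adjustment over all probe sets and an adjusted p under 0.05. By the brightest probe set per gene, 0 of the 10 genes passed, whereas 22.9% of the 9479 genes tested in this way did. Their log2 changes were negative for 7 genes and positive for 3, with a median of -0.17, beside -0.02 over all genes. The 95% confidence intervals of these 10 changes reached at most from a fold of 0.498 to a fold of 1.41. For *Me1* the choice of the brightest probe set rests on the CR arrays. On the control array the other one read 476.1, against 474.4, and with the brightest probe set taken from control alone 1 of the 10 genes passed, *Me1*. The calls also depended on how the arrays were scaled. Median scaling, which moved the median log2 change of all probe sets to -0.41, called 5 of the 10 genes lower (*Fasn*, *Elovl5*, *Elovl6*, *Fads1* and *Srebf1*) and 0 higher. Over all genes it called 35.9% lower and 4.06% higher, and 39.0% of all probe sets in either direction. Quantile and cyclic loess normalization called 0 of the 10, against 8.32 and 11.6% of all genes lower and 9.89 and 10.6% higher. The spread in this test comes from the 4 CR arrays alone, since there was 1 control array, and fewer cells of a type cannot be told apart from less RNA per cell.

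The CR arrays resembled each other more than they did the control array. Across probe sets, which are not independent, log2 signals had correlations of 0.912 to 0.922 between CR arrays and of 0.852 to 0.874 between a CR array and control. Signals under 10 made up 11.7 to 14.4% of the CR arrays and 24.0% of the control array. The log2 ratio of the 3′ to the 5′ probe set, which rises as RNA is shortened, was 0.398 to 0.789 on the CR arrays and 0.192 on the control array for GAPDH, and 2.19 to 2.8 on the CR arrays and 1.9 on the control array for beta-actin. Of the 9 hypothalamic neuropeptides on the array, *Pmch*, *Cartpt*, *Avp*, *Oxt*, *Hcrt* and *Npy* had signals of 806.8 to 8942.1 over all arrays, *Trh* had 140.1 to 202.1 on the CR arrays and 355.1 on the control array, *Crh* 52.2 to 79.5 and 79.6, and *Pomc*, at 4.9 to 14.8 on the CR arrays and 2.6 on the control array, was too dim to be tested. *Npy* and *Cartpt* were higher in CR and *Trh* lower, at 1.25, 0.64 and -1.09 on the log2 scale (limma, adjusted p = 0.000257, 0.00292 and 0.00803). The pituitary markers tested were higher in CR, 3 of 3, with a summed signal over 7 markers of 2049.2 to 2860.7 on the CR arrays and 990.3 on the control array, and 4 of 12 myelin and oligodendrocyte markers tested were lower and 1 higher, with sums of 25215.9 to 27223.2 on the CR arrays and 27697.9 on the control array. Adipocyte markers summed to 96.7 to 184.9 on the CR arrays and 40.6 on the control array, with 0 of 5 bright enough to be tested, and hepatocyte markers summed to 160.7 to 205.3 on the CR arrays and 54.9 on the control array, with 1 of 1 tested higher in CR. Neuron markers had 2 higher and 2 lower of 8 tested, and astrocyte markers 1 and 2 of 9. Endothelium had 1 and 1 of 6, and microglia 1 and 0 of 4. Choroid plexus had 1 and 0 of 2, and its markers summed to 218.9 to 291.1 on the CR arrays and 113.5 on the control array. Over all genes 11.6% were higher and 11.3% lower. All these counts and sums use the brightest probe set per gene. The 4 lower myelin and oligodendrocyte markers were *Mog*, *Mal*, *Ugt8* and *Olig1*, at -1.35, -1.26, -1.36 and -0.50 on the log2 scale. Further tested probe sets of *Mbp*, *Mobp*, *Cldn11*, *Stmn2*, *Aqp4*, *Glul* and *Slc1a3* were called lower, and 1 of *Slc1a3* higher. *Tshb*, *Lhb*, *Olig2*, *Ttr* and *Alb*, called higher, had control signals under the cutoff of 53.3. No marker of these lists was at 0 on any array. The part of these differences in the results below was not tested.

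Of the genes that supply acetyl-CoA and NADPH, *Acly* encodes ATP citrate lyase. Its single probe set, 1367854_at, had signals of 1521.8, 1731.1, 1784.9 and 1640.9 in 5, 10, 20 and 30% CR, against 1425.7 in control. All 4 CR arrays were above control, by a log2 change of 0.23 ± 0.10 (SD over the CR arrays, n = 4), with a 95% confidence interval of -0.04 to 0.49 that includes no change (limma, adjusted p = 0.198). After median scaling it was -0.21.

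*Me1* encodes the cytosolic malic enzyme, which makes NADPH from malate. The probe set with the higher mean over the 5 arrays, 1370870_at, had signals of 461.0, 370.5, 340.6 and 507.4 in 5, 10, 20 and 30% CR, against 474.4 in control. Here the groups overlapped, since the 30% CR array was above control, and the log2 change was -0.19 ± 0.27 (SD, n = 4), with an interval of -0.68 to 0.29 (limma, adjusted p = 0.55). The other probe set, 1370067_at, gave 197.4, 190.7, 216.1 and 264.4 in 5, 10, 20 and 30% CR, against 476.1 in control. All 4 CR arrays were below control, and the log2 change was -1.14 ± 0.21 (SD, n = 4), with an interval of -1.62 to -0.67, so that the signal in control was 2.21 times that in CR (limma, adjusted p = 0.00435). The groups did not overlap on this probe set, and in 33.1% of all probe sets the 4 CR arrays lay below control. In control 1370067_at read as much as the other one (476.1 and 474.4), so that the CR arrays decide which of the pair is called the brighter.

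Chain synthesis starts with *Acaca*, acetyl-CoA carboxylase alpha, which makes malonyl-CoA. Probe set 1370893_at had signals of 702.5, 680.7, 681.5 and 709.1 in 5, 10, 20 and 30% CR, against 659.8 in control, a log2 change of 0.07 ± 0.03 (SD, n = 4) with an interval of -0.20 to 0.35 (limma, adjusted p = 0.711). Its CR arrays all lay above control by a small margin, which was not past the threshold, and after median scaling the log2 change was -0.36. The second *Acaca* probe set, 1387538_at, was too dim to be tested, at 12.2, 15.9, 36.4 and 10.2 in 5, 10, 20 and 30% CR and 25.8 in control.

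*Fasn* encodes fatty acid synthase, the multi-enzyme protein that assembles palmitate. Its brighter probe set, 1367708_a_at, had signals of 1041.0, 980.4, 840.9 and 948.1 in 5, 10, 20 and 30% CR, against 1158.4 in control. The weaker probe set, 1367707_at, gave 290.9, 228.3, 240.7 and 280.8 in 5, 10, 20 and 30% CR, against 357.7 in control. On both probe sets every CR array was below control. The log2 changes were -0.29 ± 0.13 (SD, n = 4; interval -0.59 to 0.02) on the brighter and -0.47 ± 0.17 (interval -0.90 to -0.03) on the weaker, and neither passed the threshold after adjustment over all probe sets (limma, adjusted p = 0.157 and 0.106).

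Among the elongases, *Elovl6* lengthens palmitate to stearate. Its brighter probe set, 1394401_at, had signals of 673.5, 624.2, 595.1 and 495.4 in 5, 10, 20 and 30% CR, against 690.3 in control. This was the only probe set of the 18 whose signal was lower at each step of restriction, control included, as 1.04% of all probe sets were, and none was higher at each step, as 1.3% of all were. The log2 change was -0.22 ± 0.19 (SD, n = 4), with an interval of -0.60 to 0.17 (limma, adjusted p = 0.385). The second probe set, 1388108_at, did not have that order, with 417.9, 364.1, 439.7 and 397.8 in 5, 10, 20 and 30% CR and 428.9 in control, and its log2 change was -0.09 ± 0.12 (limma, adjusted p = 0.727).

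*Elovl5* encodes the elongase of polyunsaturated chains. On its brighter probe set, 1388348_at, the signals were 1382.9, 1383.8, 1382.5 and 1495.6 in 5, 10, 20 and 30% CR, against 1480.1 in control. The lower 3 levels nearly coincided and the 30% CR array stood above control, and the log2 change was -0.07 ± 0.06 (SD, n = 4), with an interval of -0.32 to 0.18 (limma, adjusted p = 0.685). The dimmer probe set, 1387630_at, gave 66.1, 54.6, 74.4 and 61.4 in 5, 10, 20 and 30% CR, against 116.7 in control. All its CR arrays were below control, but the log2 change of -0.87 ± 0.19 (interval -1.65 to -0.10) missed the threshold (limma, adjusted p = 0.0939). With some other settings it passed, at -0.87 when the spread was not fitted to signal (limma, adjusted p = 0.0414) and at -1.20 after cyclic loess scaling (limma, adjusted p = 0.0304). After median scaling it passed too, at -1.31. It passed in none of the remaining alternatives, quantile normalization and leaving out each CR array among them.

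The desaturases were measured by *Scd2*, which places the first double bond in saturated chains, and by *Fads1* and *Fads2*, the delta-5 and delta-6 desaturases of polyunsaturated chains. The *Fads1* probe set, 1367857_at, had signals of 821.5, 916.4, 863.5 and 927.1 in 5, 10, 20 and 30% CR, against 968.4 in control, all CR arrays below control, with a log2 change of -0.14 ± 0.08 (SD, n = 4) and an interval of -0.42 to 0.14 (limma, adjusted p = 0.46). For *Fads2*, 1368453_at gave 153.4, 114.0, 153.4 and 125.3 in 5, 10, 20 and 30% CR, against 156.4 in control, with a log2 change of -0.21 ± 0.22 and an interval of -0.78 to 0.37 (limma, adjusted p = 0.594). Neither desaturase of polyunsaturated chains passed the threshold.

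*Scd2* was read by 4 probe sets that did not move together. The brightest, 1367668_a_at, had signals of 5977.9, 6320.6, 6811.4 and 6459.1 in 5, 10, 20 and 30% CR, against 5586.2 in control. The suffix _a_at marks a probe set designed to match several transcripts of the same gene. All 4 CR arrays were above control, and the log2 change of 0.19 ± 0.08 (SD, n = 4; interval -0.03 to 0.41) did not pass the threshold (limma, adjusted p = 0.184). This small positive change was -0.24, -0.12 and -0.01 after median, quantile and cyclic loess scaling.

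A pair of the other probe sets was high in CR and low in control. Probe set 1398016_at had signals of 164.0, 154.7, 222.9 and 189.9 in 5, 10, 20 and 30% CR, against 14.5 in control. Probe set 1388253_at had 271.2, 397.5, 344.1 and 246.4 in 5, 10, 20 and 30% CR, against 40.2 in control. On both, every CR array was far above control. Their log2 changes were 3.64 ± 0.24 and 2.94 ± 0.32 (SD, n = 4), but both control signals were under the filter cutoff of 53.3, so that these sizes are not firm and no test is given. The CR signals, averaged as log2 and turned back to the linear scale, were 3.39 and 5.8 times the cutoff. With a pseudocount of 13.7 the log2 changes were 2.79 and 2.58. Of the 1631 probe sets that were tested although their control signal was under the cutoff, 45.9% were called higher in CR.

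Probe set 1386889_at moved the other way and was above the cutoff in both groups. It had signals of 91.8, 130.7, 131.5 and 139.1 in 5, 10, 20 and 30% CR, against 464.6 in control, a log2 change of -1.93 ± 0.27 (SD, n = 4; interval -2.53 to -1.34), so that the signal in control was 3.82 times that in CR (limma, adjusted p = 0.00107). None of these 3 probe sets had a CR signal that overlapped control. Over all probe sets, the 4 CR arrays lay above control in 37.1% and below it in 33.1%. Which exons or transcripts each probe set matches was not analysed here, and whether any of them also binds the related *Scd* transcript was not tested.

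*Srebf1* encodes SREBP-1, the transcription factor of lipid synthesis. Its brighter probe set, 1388426_at, had signals of 188.5, 257.4, 158.2 and 217.9 in 5, 10, 20 and 30% CR, against 272.3 in control. All CR arrays were below control and far from each other, and the log2 change was -0.43 ± 0.30 (SD, n = 4), with an interval of -1.01 to 0.15 (limma, adjusted p = 0.253). The second probe set, 1371104_at, gave 104.4, 89.8, 88.7 and 55.5 in 5, 10, 20 and 30% CR, against 101.7 in control, with a log2 change of -0.30 ± 0.40 (limma, adjusted p = 0.6). Its 5% CR array was above control and its 30% CR array the lowest.

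**Figure D1:**
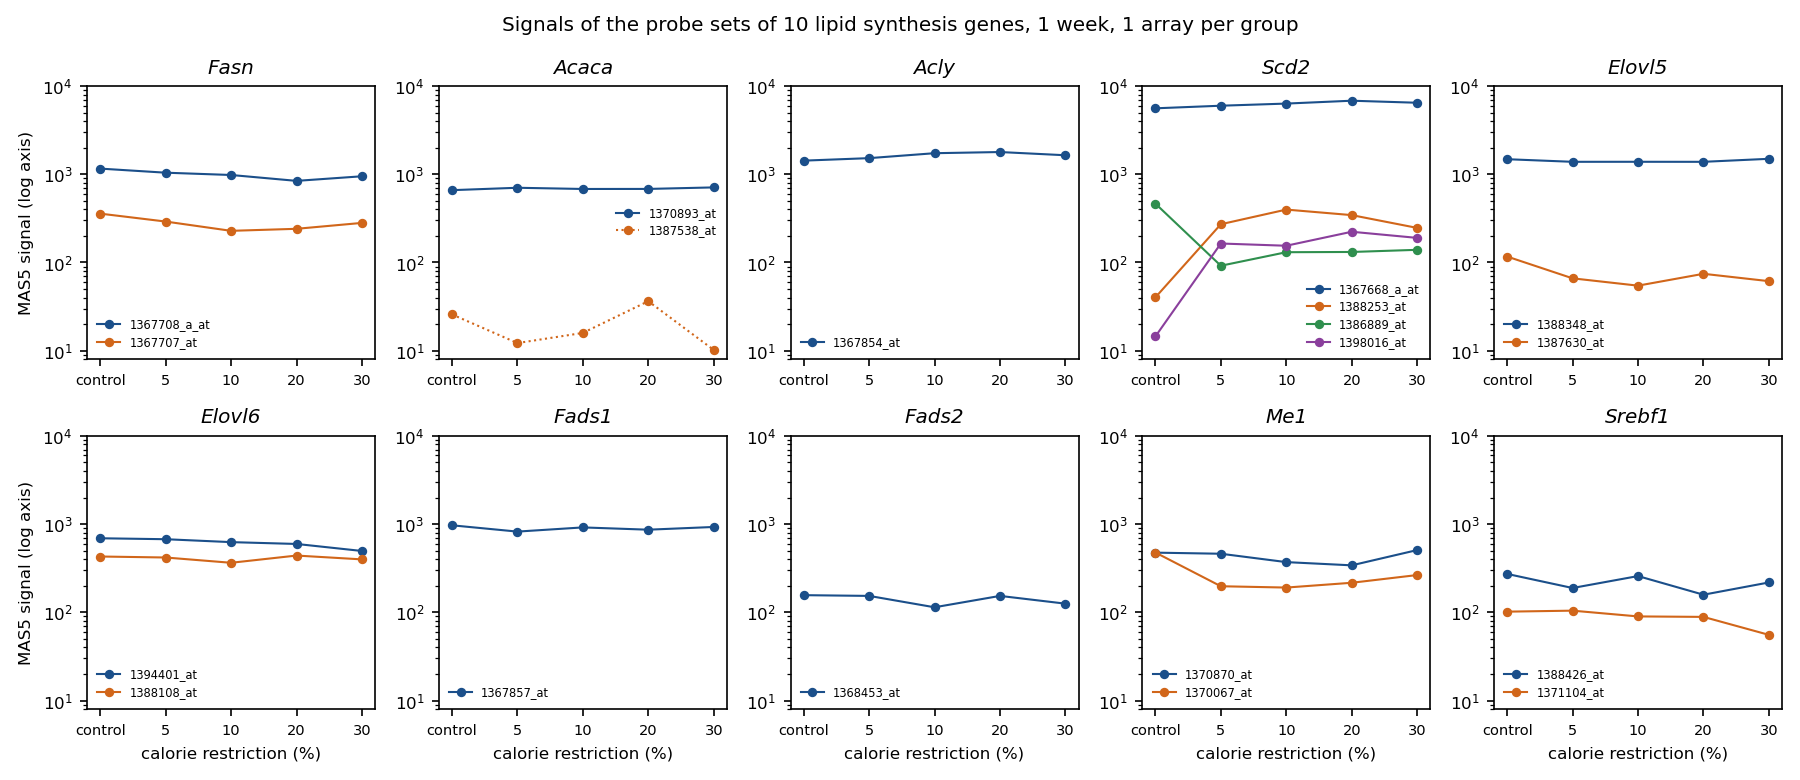
MAS5 signal (log axis) of the 19 probe sets of the 10 genes on the control array and the arrays of 5, 10, 20 and 30% CR, 1 panel per gene, with a point for each array and a dotted line for the probe set that was too dim to be tested. The *Scd2* probe sets 1388253_at and 1398016_at had CR signals of 154.7 to 397.5, against 40.2 and 14.5 in control, whereas 1386889_at had 91.8 to 139.1 in CR, against 464.6 in control.

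**Figure D2:**
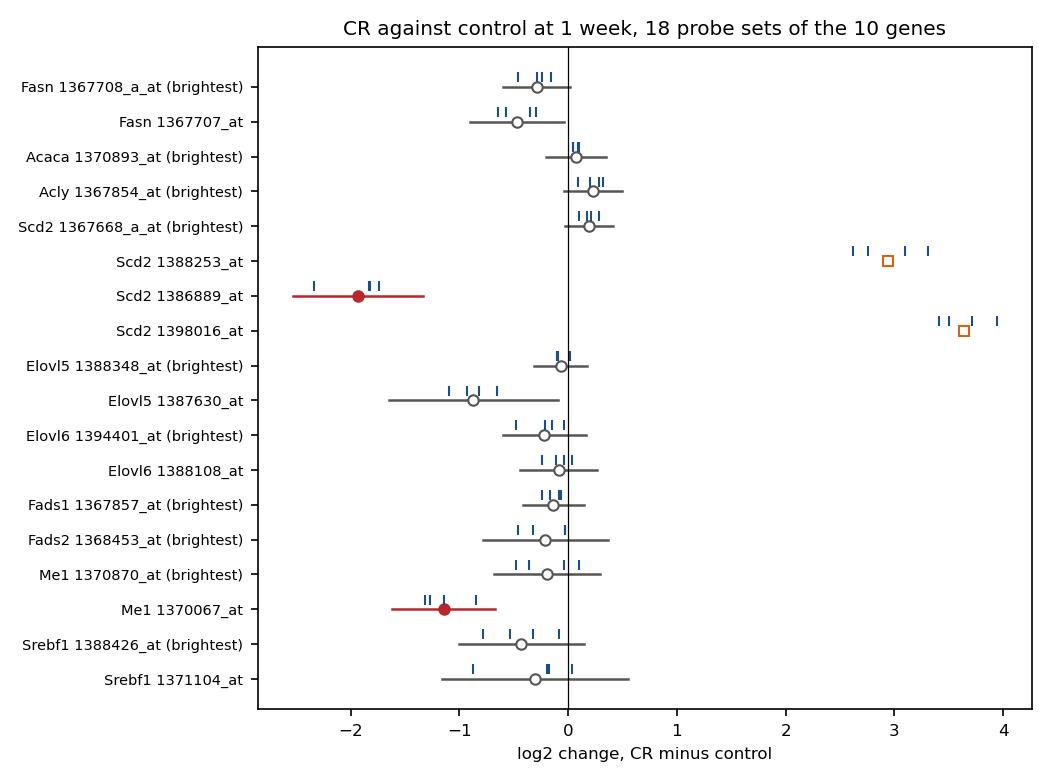
Log2 change of CR over control at 1 week for the 18 tested probe sets, with the mean over the 4 CR arrays, its 95% confidence interval from limma and a blue tick for each CR array. Red filled points passed the threshold (*Scd2* 1386889_at at -1.93 and *Me1* 1370067_at at -1.14), open circles did not, and orange squares with no interval are the 2 *Scd2* probe sets whose control signal was under the cutoff, at 3.64 and 2.94.

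Whether probe sets of the same gene changed by different amounts was tested directly, by a limma fit to the difference in log2 signal between 2 probe sets on each array, adjusted over the 2962 pairs of all genes. Of all pairs 26.8% differed, and 24.5% of the 2385 pairs with both probe sets above the cutoff in both groups. These genes had 6 such pairs, of which 2 differed, 1 of *Scd2* and that of *Me1*. For *Scd2*, the log2 change of the brightest probe set was 2.13 above that of 1386889_at (limma, adjusted p = 4.07e-04). The remaining 5 *Scd2* pairs hold at least 1 of the probe sets with a control signal under the cutoff and are given with no test. The change of the brightest minus that of 1388253_at was -2.75 and minus that of 1398016_at -3.45, and that of 1386889_at minus these was -4.88 and -5.57. Between 1388253_at and 1398016_at the difference was -0.70. For *Me1*, the change of 1370067_at minus that of 1370870_at was -0.95, with an interval of -1.62 to -0.28 (limma, adjusted p = 0.0398). For *Elovl5* the dimmer minus the brighter was -0.80, with an interval of -1.46 to -0.15, which missed the threshold (limma, adjusted p = 0.0674). The pairs of *Fasn*, *Elovl6* and *Srebf1* differed by -0.18, 0.13 and 0.13 (limma, adjusted p = 0.621, 0.741 and 0.87).

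The spread from the smallest to the largest log2 change within a gene was taken over probe sets above the cutoff in both groups, which left 1582 genes with at least 2 of them and a median spread of 0.67. *Scd2*, with 2 of its 4 probe sets left, had a spread of 2.13, and 66 genes had a larger one. *Me1*, at 0.95, had 514 genes above it and *Elovl5*, at 0.80, had 633. A gene with more probe sets has more chances of a wide spread.

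**Figure D3:**
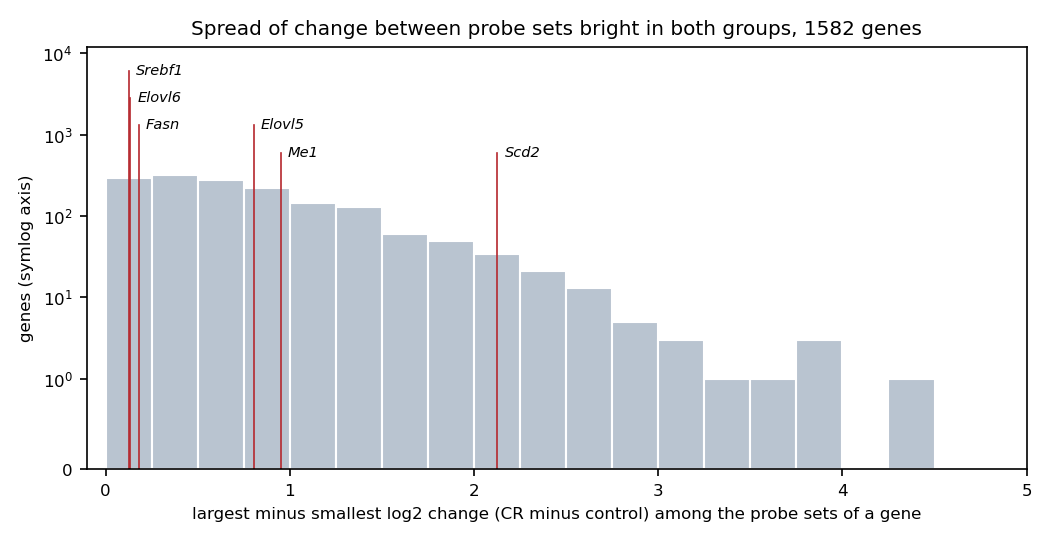
Histogram of the spread of log2 change (largest minus smallest, CR minus control) between probe sets of the same gene that are above the filter cutoff in both groups, with the number of genes on a symlog axis, over 1582 genes. Red lines mark the 6 genes of the pathway with at least 2 such probe sets, of which *Scd2* lies at 2.13 and the others at 0.13 to 0.95.

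The trend over CR level asked whether signals followed the depth of restriction among the 4 CR arrays, without the control array. No probe set of these genes passed, and 0.0% of all 15521 did (limma, adjusted p = 0.999 for each probe set of the 10 genes). At an unadjusted p under 0.05, 1 of the 18 was counted, against 4.79% of all probe sets. This was the brighter probe set of *Elovl6*, 1394401_at, with a slope of -0.16 on the log2 scale per 10 points of CR and an interval of -0.31 to -0.02 (limma, unadjusted p = 0.0307). The second *Elovl6* probe set, with 439.7 in 20% CR as its highest CR signal, had no such order. *Srebf1* 1371104_at, whose 4 CR signals were lower at each higher level, had a slope of -0.33 (limma, unadjusted p = 0.07).

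Level by level, each CR array was set against the control array with no test, and a ratio past 1.5-fold was counted. At 5, 10, 20 and 30% CR, 5, 6, 6 and 6 of the 18 probe sets were past it, against 35.4, 38.5, 39.7 and 33.2% of all probe sets. At each level 2 of them were higher, the *Scd2* probe sets with a control signal under the cutoff, against 20.7, 21.9, 22.6 and 19.5% of all, and 3, 4, 4 and 4 were lower, against 14.7, 16.6, 17.1 and 13.7% of all. The same 5 were past it at every level, namely these 2, *Scd2* 1386889_at, *Me1* 1370067_at and *Elovl5* 1387630_at. The sixth was *Fasn* 1367707_at at 10%, *Srebf1* 1388426_at at 20% and *Srebf1* 1371104_at at 30%, all lower in CR. By the brightest probe set per gene, *Srebf1* at 20% was the only one of the 10 genes past 1.5-fold at any level. The median log2 ratios over these 10 were -0.04, -0.09, -0.13 and -0.02 at 5, 10, 20 and 30% CR. All 4 CR arrays lay below control in 9 of the 18 probe sets, against 33.1% of all, and above it in 5, those 2 included, against 37.1% of all.

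The other genes of the pathway were taken from 8 lists, on the brightest probe set per gene. With the 10 genes left out, 66 were tested, of which 5 were higher in CR (7.58%, against 11.6% of all genes) and 13 lower (19.7%, against 11.3%), with a median log2 change of -0.20. The 13 include *Usf1*, which was tested only through the control array. These shares were not limited to genes above the cutoff in both groups. The median over all genes was -0.02. After median scaling 0 were higher and 38 lower (57.6%), with a median of -0.64, against 4.06% higher and 35.9% lower over all genes and a median of -0.46. Without the fit of spread to signal 0 were higher and 6 lower (9.09%), against 8.13% higher and 5.77% lower over all genes. The counts per list below leave out the 10 genes too. In the supply of precursors and NADPH 2 of 7 were lower and 0 higher, and both belong to the non-oxidative branch of the pentose phosphate pathway, which itself makes no NADPH. Transaldolase, *Taldo1*, had signals of 446.9, 359.5, 484.8 and 455.2 in 5, 10, 20 and 30% CR, against 1078.8 in control, a log2 change of -1.31 ± 0.19 (SD, n = 4; limma, adjusted p = 0.000926). Transketolase, *Tkt*, had 639.9, 633.7, 657.2 and 640.0 in 5, 10, 20 and 30% CR, against 893.4 in control, a change of -0.48 (limma, adjusted p = 0.0193) that was not called after quantile normalization (adjusted p = 0.0585, limma).

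In the lists of chain synthesis (1 tested, at -0.37) and elongation (6 tested, with a median of -0.01) none passed. Of the 6 tested genes of desaturation and its electron supply 2 were lower and 0 higher. *Cyb5r3*, the reductase that feeds electrons through cytochrome b5 to desaturases, had 464.9, 479.4, 381.1 and 461.8 in 5, 10, 20 and 30% CR, against 759.5 in control, a log2 change of -0.77 (limma, adjusted p = 0.00789). *Degs1*, the dihydroceramide desaturase of sphingolipid synthesis, had a change of -0.54 (limma, adjusted p = 0.0119), but its other 2 tested probe sets were not called. *Scd*, the paralog of *Scd2*, had signals of 89.2 to 111.3 in CR, against 62.5 in control, a log2 change of 0.64 that did not pass (limma, adjusted p = 0.145). It lies outside the rule for named genes and was chosen after its values were seen.

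Of the 16 regulators tested 5 were lower (31.2%, against 11.3% of all genes) and 0 higher, with a median of -0.33. The 5 include *Usf1*, which was tested only through the control array, so the share rests in part on a gene with no valid test. *Insig1*, which holds SREBP in the endoplasmic reticulum and is itself an SREBP target, had 265.3, 348.1, 245.5 and 243.1 in 5, 10, 20 and 30% CR, against 833.0 in control, a log2 change of -1.61 ± 0.24 (SD, n = 4; limma, adjusted p = 0.000888). *Scap*, the escort protein of SREBP, had 247.3, 228.0, 203.1 and 281.0 in 5, 10, 20 and 30% CR, against 495.5 in control, a change of -1.06 (limma, adjusted p = 0.00511). *Nr1h2*, the sterol receptor LXR beta, changed by -1.50 (limma, adjusted p = 0.0165). *Usf1*, an E-box factor, had 56.1, 25.1, 36.4 and 78.5 in 5, 10, 20 and 30% CR, against 218.6 in control. Its mean over the CR arrays was under the filter cutoff, so it was tested only through the control array, and no size or test is given for it beyond its place among the 5. The fifth, *Mlx*, the partner of ChREBP, changed by -0.71 (limma, adjusted p = 0.0428), and it is named outside the rule, after its values were seen. The other tested probe set of *Mlx* was not called. *Mlx* was not called after quantile normalization, at -0.65, nor without the 10, 20 or 30% CR array (limma, adjusted p = 0.0704, 0.0613 and 0.0594). *Srebf1*, itself a regulator and left out of this count, did not pass on either probe set.

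In mitochondrial fatty acid synthesis 1 of 6 was higher, *Ndufab1*, the acyl carrier protein, with a log2 change of 0.42 (limma, adjusted p = 0.0229). Activation and binding had 4 higher and 1 lower of 13. The higher ones were the fatty acid binding proteins *Fabp3* and *Fabp5*, at 0.57 and 0.42 (limma, adjusted p = 0.0226 and 0.0155), the acyl-CoA binding protein *Dbi*, at 0.41 (limma, adjusted p = 0.0123), and the transport protein *Slc27a4*, at 0.64 (limma, adjusted p = 0.0355). *Dbi* had 4618.3, 4592.0, 4881.5 and 4892.0 in 5, 10, 20 and 30% CR, against 3580.3 in control. After median scaling *Dbi*, *Fabp5* and *Ndufab1* turned to -0.03, -0.02 and -0.01 and *Fabp3* and *Slc27a4* stood at 0.13 and 0.21, none of them called. *Dbi* was not called after quantile or cyclic loess normalization either, at 0.23 and 0.25 (limma, adjusted p = 0.0865 and 0.0693), nor *Ndufab1* after cyclic loess, at 0.30 (limma, adjusted p = 0.0733). Without the fit of spread to signal none of these 5 was called. *Slc27a4* also lost its call without the 5, 10 or 30% CR array (limma, adjusted p = 0.0668, 0.0556 and 0.0517) and *Ndufab1* without the 5% CR array (limma, adjusted p = 0.0529). The acyl-CoA synthetase *Acsl6* was lower, at -0.44 (limma, adjusted p = 0.0394), but not without the 5, 10 or 20% CR array (limma, adjusted p = 0.07, 0.0706 and 0.0587), nor after quantile or cyclic loess normalization (limma, adjusted p = 0.117 and 0.0722). In glycerolipid assembly 3 of 11 were lower and 0 higher, all acyltransferases of phosphatidic acid synthesis, *Agpat1* at -1.16, *Agpat4* at -0.97 and *Agpat3* at -0.73 (limma, adjusted p = 0.0223, 0.0231 and 0.0185). Without the fit of spread to signal these 3, *Acsl6*, *Mlx*, *Degs1* and *Tkt* were not called either. Of the other 3 tested probe sets of *Agpat3*, 1 was called higher in CR and 0 lower.

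**Figure D4:**
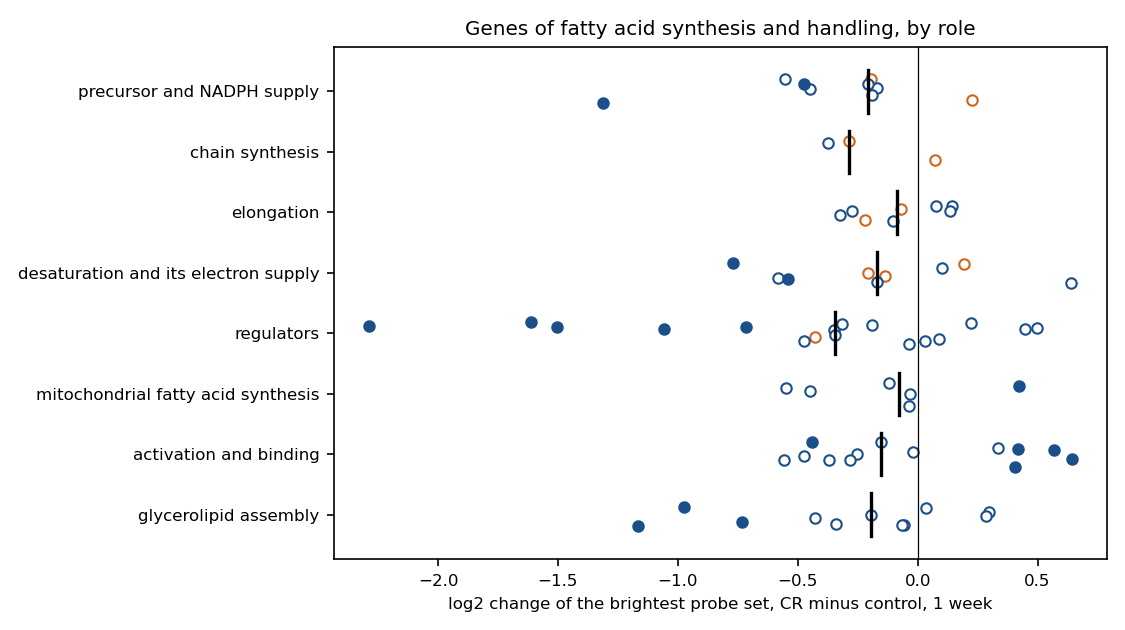
Log2 change of CR over control at 1 week by the brightest probe set per gene for the 8 pathway lists, with a point for each tested gene (filled where called, orange for the 10 genes and blue for the others) and a black bar for the list median. With the 10 genes included, list medians ran between -0.35 (regulators) and -0.08 (mitochondrial fatty acid synthesis), and the calls were 5 higher and 13 lower in all, the lowest point being *Usf1*, with 0 higher after median scaling. The mean CR signal of *Usf1* was under the filter cutoff.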

How the data were processed

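The authors hybridised pooled RNA of 5 rats per group to 1 Affymetrix Rat Genome array each, and deposited signal intensity on a linear scale, made with MAS5 per the submitters' processing notes. MAS5 subtracts mismatch signal and scales each array, so low values are noisy as logs. Detection calls were not used here. The table held 31099 probe sets, of which 57 array controls were left out, and 20832 had 1 gene symbol in the platform annotation, 436 several and 9831 none. Signals were taken as log2 after 4 zeros were set to 0.1. Those whose log2 signal, averaged over the arrays, exceeded the 50th percentile (5.74, a signal of 53.3) were tested with limma 3.58.1 in R 4.3.3 (lmFit, eBayes with intensity trend, 3 residual degrees of freedom for CR against control and 2 for the trend), with Benjamini-Hochberg adjustment at 0.05. A probe set under that cutoff in 1 group was tested only through the other. The spread behind each p-value is that between pools of different CR levels, which are not replicates of a dose. The 5 columns of 1 month were not used, since their rows correlated with the 1 week arrays at only 0.0357 to 0.0524. The gene value was the brightest probe set, and other list genes were named if past the threshold, up to 4 per list and direction by size of change. The fits were tested on simulated arrays. Summaries were made with pandas 2.3.3 and scipy 1.17.1, and plots with matplotlib 3.10.9. The genes and lists were chosen with earlier results of these data known, and the pair test, the counts over probe sets above the cutoff in both groups, the brightest probe set chosen on control alone and the alternatives for list genes were added after the data were seen. Alternatives were other scalings, filters, a pseudocount of 13.7, other eBayes settings, a 2-fold ratio, the gene value as the mean of its probe sets, and leaving out each CR array.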

Additional observations from a re-analysis of the deposited data

Results flagged for a closer look

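In 2 of the 19 probe sets, 1 of the 4 CR arrays lay far from the other CR arrays, by the gap to its nearest neighbour as a share of the whole range, and chance alone flags about 1 in 20 groups. For *Scd2* 1386889_at this was the 5% CR array, the lowest of the CR arrays at 91.8, with a gap of 0.8501 of the range. Without it the log2 change was -1.80 (limma, adjusted p = 0.00081). For *Elovl5* 1388348_at it was the 30% CR array, the highest at 1495.6, with a gap of 0.988 of the range, the other CR arrays lying at 1382.5 to 1383.8 and control at 1480.1. The log2 change of that probe set passed the threshold neither with nor without the array.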

How the results depend on the processing

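*Me1* 1370067_at and *Scd2* 1386889_at kept their direction and their call under the 12 and 11 alternatives in which they were tested. Of the 4 probe sets of these genes past the threshold, 2 were left when only those above the filter cutoff in both groups were counted, and 2 of the 6 pairs that differed. With the brightest probe set chosen on the control array alone, 1 of the 10 genes passed. Over all 18 probe sets, 194 alternative values stayed on their side, 10 newly passed and 7 reversed, all 7 reversals in probe sets that were not called. Median scaling moved the median log2 change of all probe sets to -0.41, against 0.03, and turned *Acaca* 1370893_at to -0.36, *Acly* to -0.21 and *Scd2* 1367668_a_at to -0.24, raised the calls to 6047 (16.9% of them higher in CR) and those of the 10 genes to 12 of 18 probe sets, or 5 of 10 by the brightest, all lower, where 35.9% of all genes were lower. The 12 include the 2 *Scd2* probe sets with a control signal under the filter cutoff. Quantile normalization turned *Scd2* 1367668_a_at to -0.12, *Elovl5* 1388348_at to 0.0063 and *Elovl6* 1388108_at to 0.0047, and cyclic loess turned *Scd2* 1367668_a_at to -0.012. Without a filter 6685 probe sets were called (73.9% higher in CR), against 3958. The 75th percentile filter left 13 probe sets of the 10 genes tested, of which 2 were called, *Me1* 1370067_at and *Scd2* 1388253_at. The latter had a control signal of 40.2 and entered only through CR. By the brightest probe set 0 of 9 genes were called there. Counts past 1.5-fold at 5, 10, 20 and 30% CR were 17420, 18016, 18329 and 16866 with no filter, 2008, 2383, 2475 and 1906 with the 75th percentile filter, and 2436, 2705, 2884 and 2201 at 2-fold. Pairs that differed numbered 793, against 1305 with no filter and 355 at the 75th percentile, where 2 pairs of these genes were left in place of 6. These are not the 2 pairs above the cutoff in both groups, since *Scd2* 1386889_at was not tested there. The only *Scd2* pair tested there holds 1388253_at, which entered only through CR. Leaving out 1 CR array, the trend had 3 to 30 calls over all probe sets, 30 without the 10% CR array, and 0 in these genes. As the mean of all its probe sets the log2 change was 1.21 for *Scd2*, -0.67 for *Me1*, -0.47 for *Elovl5* and -0.29 for *Acaca*. The *Scd2* mean takes in the 2 probe sets with control signals under the cutoff, at 2.94 and 3.64, whose sizes are not firm. Its other probe sets were at 0.19 and -1.93. The *Acaca* mean takes in 1387538_at, which was too dim to be tested. For the 18 other pathway genes called, *Usf1* included, 179 alternative values kept the call, 31 lost it and 3 reversed, all 3 under median scaling (*Ndufab1* -0.014, *Fabp5* -0.0178, *Dbi* -0.0292), and *Taldo1*, *Cyb5r3*, *Insig1*, *Scap* and *Nr1h2* kept it wherever tested. The causes were not tested. *Nr1h2* was not among the genes tested with the 75th percentile filter, and its 5% CR signal of 48.7 was under the main cutoff. No paired analysis was possible because there was 1 control array and no replicate numbers tie arrays together. Arrays without a second copy limit all values, and the control signals of 14.5 and 40.2 in *Scd2* lie under the filter cutoff.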
